A study of Homo sapiens with 6 samples.

Results

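The AP-1 factors and EGR1 are transcription factors through which cells answer growth and stress signals, and some of them, such as FOS and EGR1, are switched on within minutes. The FOS proteins (FOS, FOSB, FOSL1 and FOSL2) pair with the JUN proteins (JUN, JUNB and JUND) through a leucine zipper, and the pair, called AP-1, binds DNA at the TPA response element. EGR1 is a zinc finger factor that is induced by the same signals. In epithelial cancers, FOSL1, also known as FRA-1, is kept up by ERK signalling. These 8 genes were taken by name from the 60240 genes of the count table, each matched 1 row, and all 8 were among the 17672 genes with enough counts to be tested.

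RNA-seq was carried out on wild-type cells of the colorectal carcinoma line HCT116 (WT, 3 libraries) and on HCT116 cells in which LSD1, a demethylase of histone H3K4 encoded by KDM1A, had been knocked out with CRISPR/Cas9 (LSD1 KO, 3 libraries). Both groups were grown in McCoy's 5A medium with serum and antibiotics, and the labels name no other treatment. According to the study's methods, transfected cells were selected with puromycin and single clones were expanded, but how many clones gave RNA was not stated, so the knockout and the clone cannot be told apart. The question asked here is whether the loss of LSD1 changed the transcript levels of the AP-1 factors and EGR1.

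The libraries held between 25379279 and 29186963 counts, of which the 8 genes took between 0.0557% and 0.106%, with at least 108 counts for each gene in each library. Expression is given in CPM, the count of a gene relative to the library size after TMM scaling. The lowest level that could be told from 0 was taken as 3 counts, or 0.0994 to 0.114 CPM depending on the library, which covers counting error only. KDM1A had 231, 224 and 214 CPM in the WT libraries numbered 1, 2 and 3, and 29.9, 27.6 and 27.8 CPM in the LSD1 KO libraries. The groups were therefore separated as their labels say. Among epithelial markers, KRT8, KRT18, KRT19, CDH1 and EPCAM were expressed in every library, whereas CEACAM5 had at most 0.221 CPM. The 7 matched markers of leukocytes, fibroblasts and endothelium summed to between 37.2 and 43.8 CPM in WT and between 56.1 and 67.8 CPM in LSD1 KO libraries. Most of that sum came from COL1A1 and CD68, whereas CD3E had 0 counts in each library and PTPRC and COL1A2 had at most 3 counts. The part of these markers in the results below was not tested.

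The upstream sequences of FOS, EGR1 and JUND are shown because FOS varied most between libraries, EGR1 had the lowest q value between the groups when replicate numbers were blocked, and the level of JUND depended most on a correction for transcript composition, as described below. They hold the 250 bases before the RefSeq start site (GRCh38.p14), printed 5′ to 3′ on the strand of the gene. Capitals mark TGACGT on either strand (the core of the cyclic AMP response element TGACGTCA), the CArG box bound by serum response factor, and TATAAA.
FOS, chr14:75278578-75278827, plus strand: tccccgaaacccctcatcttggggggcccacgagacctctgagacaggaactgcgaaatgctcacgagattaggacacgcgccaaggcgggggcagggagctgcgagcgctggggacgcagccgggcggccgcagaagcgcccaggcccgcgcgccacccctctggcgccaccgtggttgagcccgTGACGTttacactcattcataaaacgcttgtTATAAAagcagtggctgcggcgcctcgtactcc
EGR1, chr5:138465229-138465478, plus strand: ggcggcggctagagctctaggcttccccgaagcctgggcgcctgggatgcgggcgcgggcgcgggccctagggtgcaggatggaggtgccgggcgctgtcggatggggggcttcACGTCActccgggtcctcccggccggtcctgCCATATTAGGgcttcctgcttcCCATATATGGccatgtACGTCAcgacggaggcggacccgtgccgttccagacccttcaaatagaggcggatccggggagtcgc
JUND, chr19:18281623-18281872, minus strand: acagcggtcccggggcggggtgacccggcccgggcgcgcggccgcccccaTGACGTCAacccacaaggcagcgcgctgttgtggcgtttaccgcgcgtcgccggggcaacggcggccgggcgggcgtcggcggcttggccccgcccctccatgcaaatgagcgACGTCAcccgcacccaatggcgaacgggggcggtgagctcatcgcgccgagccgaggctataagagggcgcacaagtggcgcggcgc

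RefSeq gave such a window for 7 of the 8 genes, all but FOSL1. TGACGT was found on either strand in 5 of the 7 windows (EGR1, FOS, FOSB, FOSL2 and JUND), and in 7.1% of the windows of all 35116 genes. The full element TGACGTCA, which contains TGACGT on both strands, was found in JUND alone among the 7 and in 1.65% of all windows. The EGR1 window held 2 CArG boxes, at positions -105 to -96 and -83 to -74 from the start site, and a CArG box occurred in 1.16% of all windows. TATAAA was found in FOS, FOSB and JUNB, and in 10.7% of all windows. The AP-1 motif TGANTCA occurred in none of the 7 windows and in 6.57% of all, and the EGR1 motif GCGNGGGCG occurred in EGR1 and in 8.41% of all. These are matches of letters within a short window, and no binding was measured here.

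Levels were first compared between the genes within cells, per kilobase of the canonical transcript. FOSL1 was the most abundant factor, with 160 ± 42.2 CPM per kb in WT and 161 ± 49.2 CPM per kb in LSD1 KO libraries (SD, n = 3 libraries each). It was followed in WT by JUND at 84.9 ± 32.2, JUNB at 67.3 ± 26.7, EGR1 at 33.9 ± 8.81, FOS at 13.95 ± 8.97, JUN at 12.2 ± 2.47, FOSL2 at 7.37 ± 1.70 and FOSB at 1.21 ± 0.185 CPM per kb. Over the 6 libraries, the ranges of neighbours in this order overlapped for 5 of the 7 neighbouring pairs. EGR1 was above FOS, and FOSL2 above FOSB, without overlap. FOSL1 exceeded JUND within each of the 6 libraries although their ranges overlapped, and FOS exceeded JUN in 4 of the 6 libraries only.

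Within the FOS family, FOSL1 supplied most of the transcripts in every library. Its share of the family, per kilobase, was 90.7%, 86.2% and 87.4% in WT and 91.0%, 90.0% and 87.6% in LSD1 KO libraries. FOS itself, the classical immediate early gene, supplied between 3.57% and 10.0%, and its lowest shares in both groups were in the libraries numbered 1. In the JUN family, JUND and JUNB together outweighed JUN, the founding member. The share of JUND was 51.6% ± 0.846 in WT and 53.6% ± 7.06 in LSD1 KO libraries (SD, n = 3 each), and that of JUN was 7.80% ± 1.71 and 6.02% ± 1.39. The smallest p for a difference in share was 0.2, for JUN (two-sided exact permutation test, which cannot go below 0.1 with 3 libraries against 3). Between same-numbered libraries, the shares of JUN and FOSL2 were lower in LSD1 KO in 3 of 3 pairs and that of FOSL1 was higher in 3 of 3 pairs (p = 0.25 for each in a two-sided exact permutation test over pairs, added after the data were seen, the smallest that 3 pairs can give). The sum of the FOS family was 1.13 ± 0.165 times that of the JUN family in WT and 0.992 ± 0.158 times in LSD1 KO libraries, and it was lower in LSD1 KO in 3 of 3 pairs (p = 0.25 in the same exact test).

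**Figure D1:**
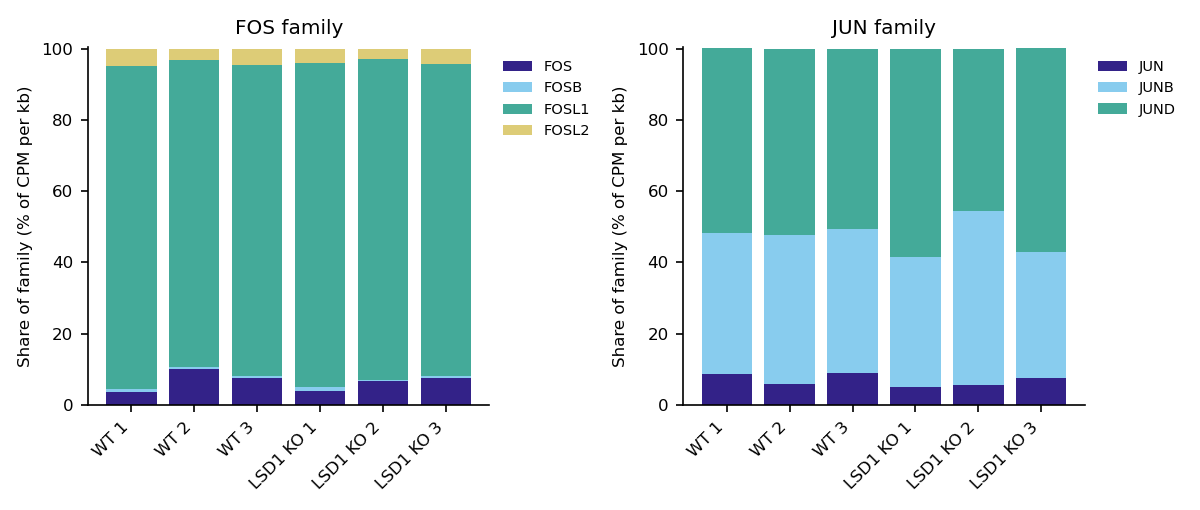
Stacked bars give the share of each gene in its family, in percent of the family's CPM per kb of canonical transcript, for each of the 6 libraries (x axis). FOSL1 takes between 86.2% and 91.0% of the FOS family, and JUND and JUNB take most of the JUN family, in WT and LSD1 KO libraries alike.

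None of the 8 genes rose or fell between LSD1 KO and WT cells by the test across all genes. With edgeR's quasi-likelihood test at a q value under 0.1, 0 of the 8 genes were called, beside 0.00566% of all genes tested (1 gene, KDM1A). With DESeq2's Wald test 0 were called as well, beside 0.376% of all genes with an adjusted p. At an unadjusted p under 0.05, edgeR gave 0 of the 8 genes and 3.12% of all genes. The median log2 fold change was 0.043 over the 8 genes and 0.00082 over all genes tested. WT and LSD1 KO libraries overlapped for each of the 8 genes, and 7.74% of all genes tested had groups without overlap. With 8 genes, these cannot be told apart. In bulk RNA, fewer cells that express a gene and less RNA per cell cannot be told apart. The study's methods speak of biological replicates for its experiments in general, but no label says that libraries of a group came from separate cultures, and if they did not, p-values measure only the spread between these libraries, which may be technical.

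Libraries with the same replicate number in WT and LSD1 KO deviated together, so a second fit held the number as a block. In that fit 1.6% of all genes were called (282 genes), but again 0 of the 8, and the lowest q among them was 0.295, for EGR1. The values of each gene are given below in the order of its family, with the log2 fold change of this second fit and its 95% interval.

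FOS (ENSG00000170345, chromosome 14 from 75278828 to 75282230) had 9.26, 46.7 and 32.1 CPM in the WT libraries numbered 1, 2 and 3, and 10.7, 33.0 and 27.9 CPM in the LSD1 KO libraries. The libraries numbered 1 were low in both groups, and the groups overlapped throughout. The log2 fold change of FOS was -0.19 (95% interval -0.51 to 0.13, q value 0.611 from edgeR with the replicate block). Without the block the interval ran from -1.59 to 0.99, and FOS varied 5.05-fold among WT libraries and 3.10-fold among LSD1 KO libraries. FOSB (ENSG00000125740, chromosome 19 from 45467996 to 45475179), a close relative of FOS, was barely expressed. It had 4.08, 5.38 and 4.27 CPM in WT and 5.44, 4.13 and 4.92 CPM in LSD1 KO libraries, and its log2 fold change was 0.079 (95% interval -0.42 to 0.58). No library stood out for FOSB, and highest and lowest libraries differed 1.32-fold within each group.

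FOSL1 (ENSG00000175592, chromosome 11 from 65892049 to 65900545) had 190.1, 324 and 302 CPM in WT and 196, 362 and 263 CPM in LSD1 KO libraries. Same-numbered libraries lay close together, and the mean of LSD1 KO was 1.01 times that of WT. The log2 fold change was 0.0024 (95% interval -0.22 to 0.22, q value 0.993), or 0.859-fold to 1.17-fold for the ends of the interval. FOSL2 (ENSG00000075426, chromosome 2 from 28392858 to 28417317), or FRA-2, had 40.0, 46.1 and 62.1 CPM in WT and 32.4, 46.3 and 49.4 CPM in LSD1 KO libraries. It was lower in the LSD1 KO library of pairs 1 and 3 and level in pair 2, with a log2 fold change of -0.21 (95% interval -0.45 to 0.027, q value 0.429).

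JUN (ENSG00000177606, chromosome 1 from 58780791 to 58784047) had 30.6, 43.5 and 45.3 CPM in WT and 21.3, 49.8 and 37.5 CPM in LSD1 KO libraries. It was lower in LSD1 KO within pairs 1 and 3, by 0.52 and 0.27 on the log2 scale, and higher within pair 2, by 0.20. The log2 fold change was -0.19 (95% interval -0.51 to 0.12, q value 0.597). When both libraries numbered 2 were left out, JUN fell by 0.41 (q value 0.0545 from edgeR with the replicate block), the only alternative of 18 in which any of the 8 genes was called. That fit called 5.85% of all genes.

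JUNB (ENSG00000171223, chromosome 19 from 12791486 to 12793315), a partner that often restrains JUN, had 78.2, 175 and 116 CPM in WT and 88.5, 248.5 and 98.1 CPM in LSD1 KO libraries. The library numbered 2 was the highest in both groups. The log2 fold change was 0.15 (95% interval -0.16 to 0.46, q value 0.687), and it became -0.051 when both libraries numbered 2 were left out. JUND (ENSG00000130522, chromosome 19 from 18279694 to 18281622), the member least dependent on stimulation, had 108, 230.5 and 153 CPM in WT and 148, 244 and 167 CPM in LSD1 KO libraries. It was higher in LSD1 KO in 3 of 3 pairs, by 0.46, 0.080 and 0.13 on the log2 scale. Its log2 fold change was 0.22 (95% interval -0.011 to 0.45, q value 0.397).

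EGR1 (ENSG00000120738, chromosome 5 from 138465479 to 138469303) had 74.4, 121 and 123.5 CPM in WT and 90.7, 133 and 149.9 CPM in LSD1 KO libraries. It was higher in LSD1 KO in 3 of 3 pairs, by 0.28, 0.14 and 0.28 on the log2 scale. The log2 fold change was 0.23 (95% interval 0.035 to 0.43), with an unadjusted p of 0.0262 and a q value of 0.295 from edgeR with the replicate block, so EGR1 did not pass the threshold. In that fit 13.4% of all genes had an unadjusted p under 0.05. EGR1 and JUND were the 2 of the 8 genes that moved the same way in all 3 pairs, beside 36.3% of all genes tested.

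**Figure D2:**
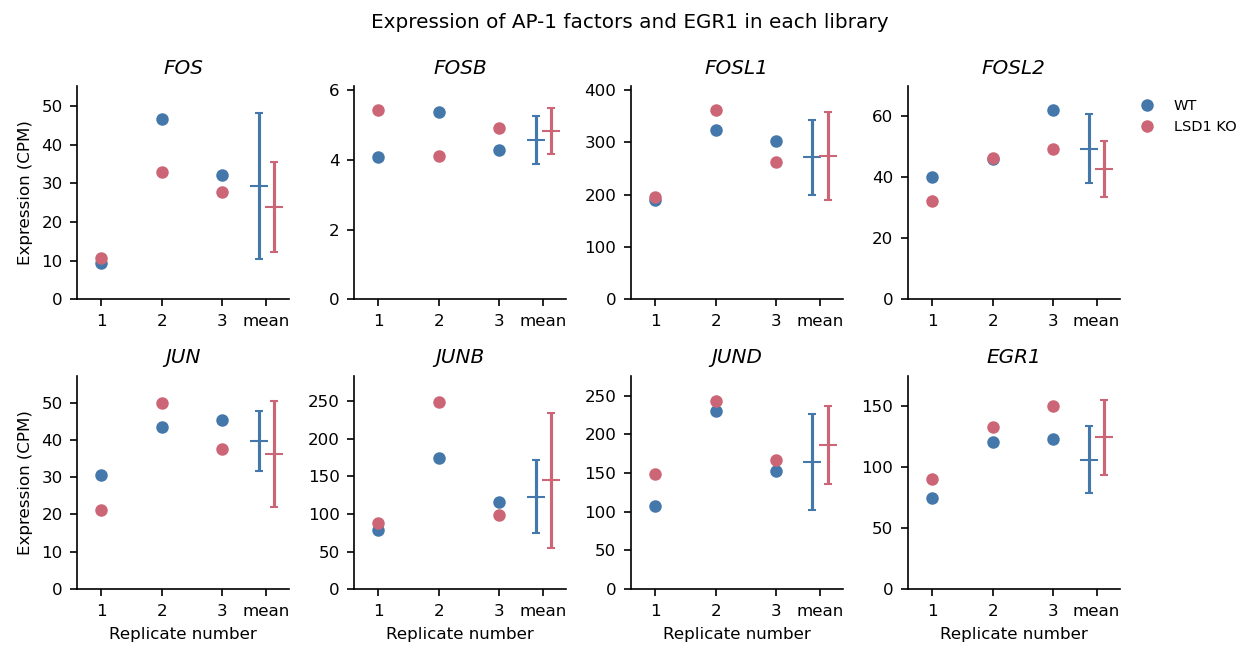
Each panel shows 1 gene, with CPM on the y axis from 0 and the replicate number on the x axis, for WT (blue) and LSD1 KO (red), and at the right the mean of each group with its SD (n = 3 libraries). For 7 genes, all but FOSB, the libraries numbered 1 are the lowest of their group, and the colours overlap in every panel.

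**Figure D3:**
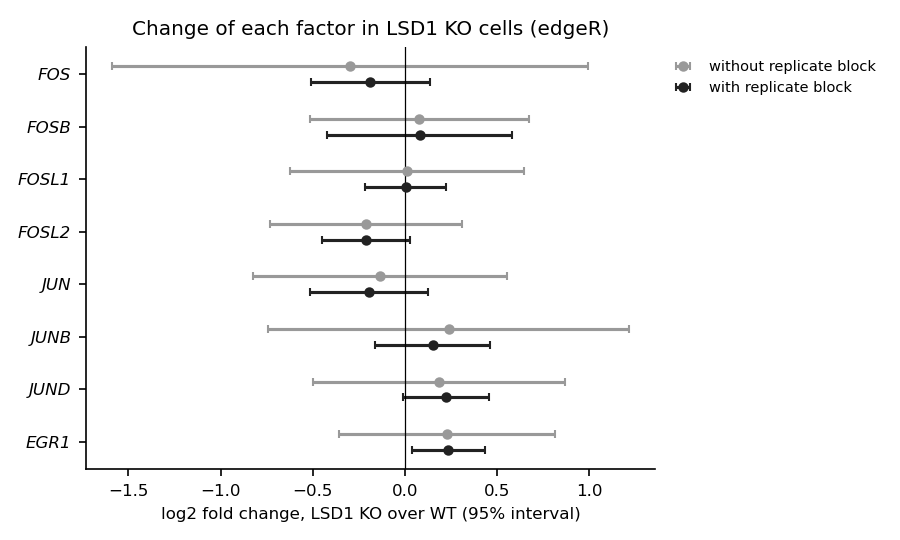
Points give the log2 fold change of LSD1 KO over WT for each gene and bars its 95% interval, from edgeR without (grey) and with (black) the replicate block. All grey bars cross 0, the black bars are shorter, and the bar of EGR1 with the block, from 0.035 to 0.43, lies above 0 although its q value is 0.295.

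For 7 of the 8 genes, all but FOSB, more of the variation lay between replicate numbers than between WT and LSD1 KO. The share of all genes tested for which this held was not computed. The number has more levels than the group, so on average it takes the larger part even where neither has an effect. On log2 CPM, the number accounted for a median of 87.6% of the sum of squares over the 8 genes and the group for 5.46%, beside 69.0% and 8.85% over all genes tested. For FOS the number accounted for 96.4% and the group for 0.919%, whereas for FOSB the number accounted for 1.08% and the group for 5.12%. The library numbered 1 was the lowest of its group in both WT and LSD1 KO for 7 of the 8 genes, beside 22.3% of all genes tested. The library numbered 2 was the highest in both groups for 4 of the 8, beside 25.1%. The labels and methods do not say what a replicate number stands for (a day, a passage or a batch).

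The difference between replicate numbers was tested in the fit with the block, an addition made after the data were seen. With edgeR's quasi-likelihood test, 7 of the 8 genes differed between numbers at a q value under 0.1, beside 41.2% of all genes. FOS rose most, by 1.98 on the log2 scale in the libraries numbered 2 against those numbered 1 (q value 0.00196), and by 1.58 in those numbered 3. JUNB was higher by 1.34 in number 2 and by 0.37 in number 3 (q value 0.00354). For EGR1 the differences were 0.63 and 0.73 (q value 0.00537), for FOSL1 0.83 and 0.55 (q value 0.00598), for JUN 0.87 and 0.68 (q value 0.0168) and for FOSL2 0.36 and 0.62 (q value 0.0212). JUND was higher by 0.90 and 0.33 (q value 0.00508), and FOSB by 0.0057 and -0.048 (q value 0.981). The median difference of number 2 against number 1 was 0.85 over the 8 genes and -0.0078 over all genes tested.

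Transcript composition moved with these differences. The transcripts of JUND and JUNB have GC contents of 69.9% and 64.9%, against a median of 48.7% over all genes tested. Across genes, the difference of number 2 against number 1 had a Spearman's rho of 0.325 with GC content and -0.239 with transcript length (genes are not independent replicates). For number 3 against number 1, rho was 0.287 with GC content and 0.037 with length. After each library was corrected for length and GC content, 6 of the 8 genes still differed between numbers, beside 34.9% of all genes. The median difference of number 2 against number 1 was then 0.56 over the 8 genes and 0.038 over all genes. FOS kept differences of 1.91 and 1.52 (q value 0.00319), and EGR1 kept 0.57 and 0.64 (q value 0.0102). For JUND, however, the differences went to 0.0068 and -0.10 (q value 0.586), and for JUNB they shrank to 0.76 and 0.11 (q value 0.0273). The correction left no gene of the 8 called between LSD1 KO and WT.

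**Figure D4:**
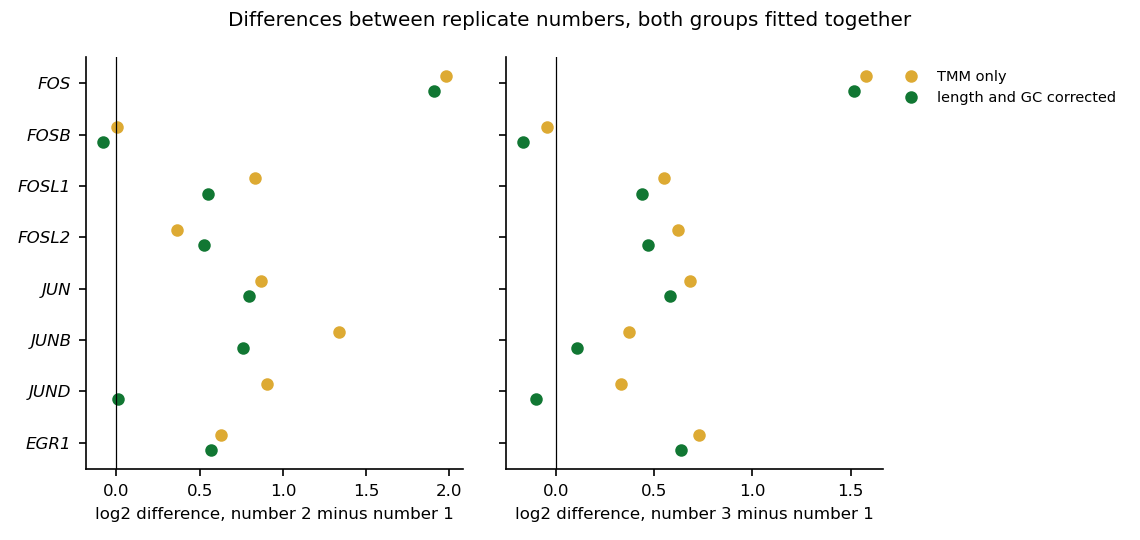
Points give the log2 difference of replicate number 2 (left) or 3 (right) against number 1 for each gene in the edgeR fit over both groups, with TMM scaling only (yellow) and after correction for transcript length and GC content (green). FOS stays near 1.9 and 1.5 on the log2 scale, whereas JUND moves from 0.90 to 0.0068 in the left panel.

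Apart from FOSB, the genes resembled each other across the 6 libraries. No value over pairs of all genes is given here, so the likeness is not shown to be particular to these genes. Pearson's r of log2 CPM had a median of 0.752 (range 0.244 to 0.940) over the 21 pairs of genes without FOSB, and of -0.112 over the 7 pairs with it. FOS was most like FOSL1 (r = 0.940), JUNB most like JUND (r = 0.924), JUN most like FOSL1 (r = 0.907), EGR1 most like FOS (r = 0.853) and FOSL2 most like JUN (r = 0.829). Among the 10348 genes with a mean of at least 10 CPM, the 3 most like FOS were CASKIN1, SHB and TMEM259 (r from 0.997 to 0.998), and the 3 most like EGR1 were ADAMTS7, DLX4 and CRTC1 (r from 0.984 to 0.992). For FOSL1 they were COL6A2, PRPF3 and TRIM8 (r = 0.994 each), and for JUN they were RET, STN1 and SAP30L (r from 0.987 to 0.997). These are descriptions over 6 libraries that share their replicate numbers, whose differences moved with GC content and length as given above.

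Genes around AP-1 and EGR1 were read from the same fits. Of 20 other immediate early genes, 19 were tested, and 0 were called without the block. With the block 1 was called, beside 1.6% of all genes tested. This was DUSP5, a phosphatase that inactivates ERK in the nucleus, which rose. It had 127, 196 and 181 CPM in WT and 209.7, 311 and 296 CPM in LSD1 KO libraries, without overlap. Its log2 fold change was 0.70 ± 0.082 (SE), with a q value of 0.0149 from edgeR with the replicate block. The median log2 fold change of the 19 genes was 0.093, beside 0.0030 over all genes. In this list, 15 of 19 genes had the library numbered 1 lowest in both groups, as 7 of the 8 AP-1 and EGR1 genes did. Over all genes tested, 22.3% did.

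Among 12 bZIP partners of the FOS and JUN proteins, such as ATF and small MAF proteins, 11 were tested and 0 were called in either fit. Of all genes tested, 0.00566% were called without the block and 1.6% with it. With lists as short as those in this paragraph, 0 calls cannot be told apart from these shares. ATF4, an effector of the integrated stress response, had 375 ± 90.3 CPM in WT and 315 ± 26.8 CPM in LSD1 KO libraries, and NFE2L2, the regulator of the oxidative stress response, had 122 ± 25.5 and 120.2 ± 18.1 CPM (SD, n = 3 each). None of the 16 upstream regulators was called either, neither serum response factor and its coactivators nor the MAP kinases. ELK3, an ETS partner of serum response factor, had 139 ± 19.4 CPM in WT and 136 ± 44.3 CPM in LSD1 KO libraries. Of 8 genes that restrain the factors, again 0 were called, and MEN1, which encodes the JUND-binding protein menin, had 90.1 ± 7.34 and 92.2 ± 5.20 CPM.

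Among 25 genes listed as AP-1 targets, 17 were tested and 2 rose with the block, beside 1.6% of all genes called in that fit. KRT80, an epithelial keratin, rose from 1.23 ± 0.209 CPM to 8.65 ± 4.74 CPM (log2 fold change 2.68 ± 0.33 SE, with a q value of 0.0159 from edgeR with the replicate block). AREG, the EGF receptor ligand amphiregulin, had 163, 301 and 235 CPM in WT and 259.7, 582 and 339 CPM in LSD1 KO libraries. It was higher in each of the 3 pairs although the groups overlapped, at a log2 fold change of 0.72 ± 0.10 (SE) and a q value of 0.0235. The other 15 tested targets were not called, and the matrix metalloproteinases MMP1, MMP3, MMP10 and MMP13 had too few counts to be tested. Of 10 EGR1 targets, 9 were tested and 0 called. With the block, their median log2 fold change was 0.18, beside 0.23 over the 17 tested AP-1 targets and 0.0030 over all genes. The cell cycle inhibitor CDKN1A had 222 ± 16.7 CPM in WT and 289.9 ± 15.1 CPM in LSD1 KO libraries (q value 0.114 with the block).

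Heat shock genes, which rise when cells are stressed in handling, were read as a list beside the immediate early genes. Of 7 genes, HSPH1, a chaperone of the HSP110 family, fell with the block, from 255 ± 71.2 CPM to 154 ± 39.8 CPM (log2 fold change -0.73 ± 0.098 SE, with a q value of 0.0204). Over all genes tested, 1.6% were called with the block. The library numbered 1 was lowest in both groups for 1 of these 7 genes, beside 22.3% of all genes tested. At a q value under 0.1, 4 of the 7 differed between numbers, beside 41.2% of all genes tested. Against number 1, HSPA1A was higher by 3.14 in number 2 and 2.79 in number 3 on the log2 scale (q value 0.00278 from edgeR). HSPA8 (-0.51 and -0.54), HSPH1 (-0.40 and -0.76) and HSP90AA1 (-0.32 and -0.41) were instead lower in numbers 2 and 3. HSPA1B did not differ at that threshold (q value 0.690). The part of handling in these differences was not tested. The list summed to between 6025 and 8074 CPM in WT and between 6007 and 8242 CPM in LSD1 KO libraries. Of the markers, EPCAM fell by 0.98 (q value 0.0788) and COL1A1 rose by 0.52 (q value 0.0628) in edgeR with the block, on the log2 scale. KRT8, KRT18, KRT19, CDH1, CD68 and VWF were not called (q values from 0.123 to 0.645), and KRT19 pointed up, by 0.45. With the block in DESeq2, 1 epithelial marker was called higher in LSD1 KO cells and 0 were called lower. Without the block, DUSP5, AREG, KRT80, HSPH1, EPCAM and COL1A1 were not called by edgeR (q values from 0.391 to 0.9995), whereas DESeq2's Wald test called KRT80 (q value 4.3e-07) and EPCAM (q value 0.0508) and not the other 4 (q values from 0.758 to 1.0).

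**Figure D5:**
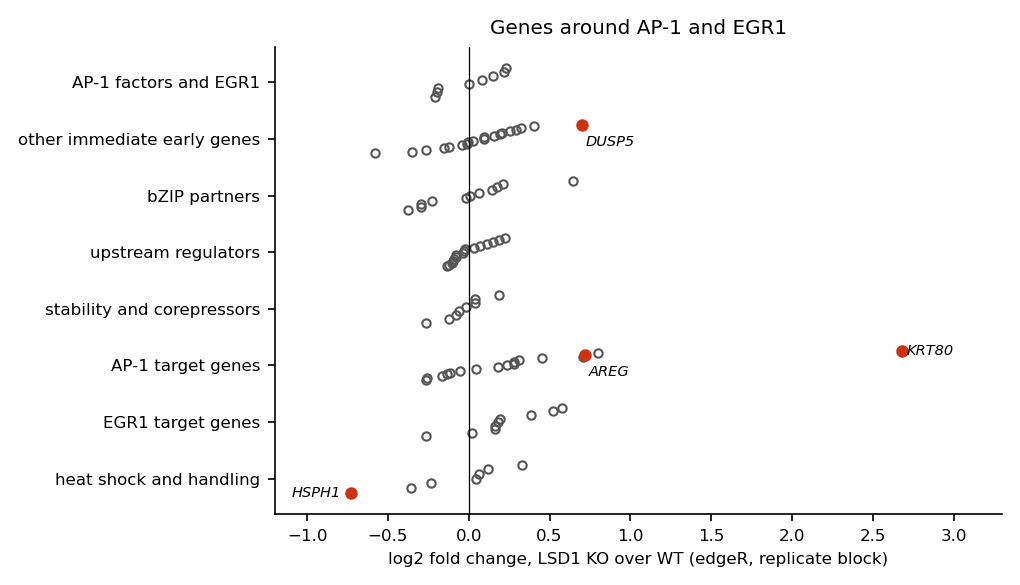
Each circle is a tested gene of the list named on the y axis, at its log2 fold change of LSD1 KO over WT in the edgeR fit with the replicate block (x axis), and filled red circles have a q value under 0.1. The AP-1 and EGR1 genes lie between -0.21 and 0.23, and DUSP5, AREG and KRT80 lie to the right and HSPH1 to the left.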

How the data were processed

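RNA-seq libraries of WT and LSD1 KO HCT116 cells (3 each) were analysed. The authors trimmed reads with Trimmomatic (version 0.39), quantified them with Salmon (1.4.0 in the submitters' processing notes) against GENCODE transcripts on GRCh38 and deposited expected counts per gene as whole numbers, not scaled for depth. The step from transcripts to genes was not given in the sources used here. Totals ranged from 25379279 to 29186963 counts. Of 60240 identifiers, 58395 were found in the name table. PECAM1 was not matched by name.

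Counts were fitted over all genes with edgeR 4.0.16 in R 4.3.3 (TMM, filterByExpr, quasi-likelihood test, Benjamini-Hochberg adjustment, q value under 0.1). Log2 CPM used a prior count of 2. Libraries with the same replicate number deviated together (Pearson's r of 0.553, 0.553 and 0.404 across genes for numbers 1, 2 and 3, and at most 0.0454 for differently numbered libraries), so the number was held as a block in a second fit. Lengths and GC contents came from canonical transcripts of GENCODE on GRCh37, known for 98.8% of tested genes, and were fitted in each library by splines. Coordinates and upstream sequences came from RefSeq (GRCh38.p14). DESeq2 1.42.0, other scaling factors, filters and thresholds, and leaving out libraries were the alternatives.

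The genes and lists were chosen with earlier results of these data known. Named were the 8 genes, KDM1A, genes of each list called in either edgeR fit, otherwise the 2 most abundant of the list, and the genes most like 4 of the 8. Some genes that this rule names are not reported here. HSPA1A, CEACAM5, CD68 and other markers, and the untested MMP genes, were named after their values were seen. The scripts were tested on simulated data. No 2 libraries held the same counts. Standard errors and intervals were derived from the F statistics.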

Additional observations from a re-analysis of the deposited data

How the results depend on the processing

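Over 18 alternatives, no alternative other than the replicate block without both libraries numbered 2 called any of the 8 genes, and it called 1 (JUN, a log2 fold change of -0.41). The genes called over the whole table numbered 1 in edgeR without the block, 4 with the length and GC correction, 22 without both libraries numbered 2, 95 with DESeq2's Wald test, 114 with no filter beyond a nonzero total, 282 with the replicate block, 412 with the block and the correction, 597 with the block in DESeq2 (added after seeing the data) and 1055 with the block without both libraries numbered 2. Leaving out 1 library gave 1 to 26, the highest without LSD1 KO replicate 2. The genes called over the pooled pathway lists went from 0 to 1 with DESeq2, without that filter and without both libraries numbered 2, to 4 with the block, 5 with the block and the correction, 10 with the block in DESeq2 and 15 with the block without both libraries numbered 2, and ran from 0 to 1 when 1 library was left out.

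FOSL1, at 0.0095 without the block, became -0.00069 with the correction, -0.015 with the block and the correction, -0.0017 with the block in DESeq2, -0.12 without both libraries numbered 2 and -0.095 with the block without them. JUNB, at 0.24, became -0.077 and -0.051 in these last settings. Leaving out 1 library moved the log2 fold change of FOS from -0.725 to 0.20, of FOSB from -0.017 to 0.20, of FOSL1 from -0.26 to 0.20, of JUN from -0.46 to 0.13, of JUNB from -0.42 to 0.58 and of JUND from -0.073 to 0.51, so their directions without the block rested on single libraries. FOSL2 (-0.34 to -0.015) and EGR1 (0.026 to 0.41) kept theirs. With all libraries kept, the block changed no call among the 8 genes. Once both libraries numbered 2 were dropped, adding the block brought the call of JUN given above. Within the edgeR fit with the block and the correction, the lowest q value among the 8 genes was 0.158, for JUND.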

Other observations

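NAB2, ZFP36 and HSPA1A had number 1 lowest and number 2 highest in both groups, as FOS and 3 other AP-1 genes did. They were chosen after their values were seen, and other genes of the lists, such as NR4A1 and HSPA1B, did not show this order. Over all genes tested, number 1 was lowest in both groups for 22.3% and number 2 highest for 25.1%. The share with both was not computed. NAB2, a corepressor of EGR1 that is itself an EGR1 target, had 36.95, 78.2 and 66.5 CPM in WT and 36.5, 58.1 and 52.3 CPM in LSD1 KO libraries numbered 1, 2 and 3. ZFP36, which encodes a protein that destabilises AU-rich mRNAs, had 35.6, 84.6 and 77.7 CPM in WT and 40.2, 137.6 and 96.6 CPM in LSD1 KO libraries. HSPA1A had 0.491, 5.15 and 3.28 CPM in WT and 0.572, 4.27 and 4.13 CPM in LSD1 KO libraries, while its near-identical copy HSPA1B ranged from 327 to 452 CPM, and how Salmon divided reads between the copies was not tested.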
